A study of Drosophila melanogaster with 58 samples.

Results

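Embryos of Drosophila melanogaster with ectopic expression of glial cells missing (gcm) were examined at embryonic stage 9, the earliest stage of the series. These embryos came from a cross of the Gal4 line MZ1060 to the UAS-gcm stock B5446. Their reference was wild-type mRNA of the same stage, pooled in equal amounts from B5446 and MZ1060, so both the transgene and the driver were present in the reference, but never in the same embryo. The arrays were chosen by their titles, which gave 4 of the 58 arrays of the series. The other arrays hold ectopic gcm at stages 10 to 16 (29 arrays) and gcm mutants at later stages, and no mutant array of stage 9 was analysed here. On replicates 1 and 2 the ectopic RNA was labelled with Cy3, and on replicates 3 and 4 with Cy5. The submitters described the hybridisations as independent experiments on mRNA of whole embryos collected from timed egg lays. The labels do not say in which cells MZ1060 is active, nor how many embryos made up a sample.

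The gcm gene encodes a zinc-finger transcription factor that directs neural precursors to become glia, acting with its homologue gcm2 through targets such as repo and loco. It is also needed in the embryonic head mesoderm, where it is required for plasmatocytes, the macrophage-like blood cells of the fly. Stage 9 lies in germ-band extension, when the first neuroblasts leave the ectoderm, glia are not yet formed and many maternally supplied RNAs have already been degraded.

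Each value below is a log2 ratio of ectopic over wild type, centred on the median of its array. Replicate 1 stood apart, since 50.4% of its 23808 probes had a value, against 91.7%, 92% and 75.7% on replicates 2, 3 and 4. Its spread, as a median absolute deviation of 1.07, was near that of replicate 2 (1.05) and above those of replicates 3 (0.84) and 4 (0.73). Where both spots of a probe had a value, they correlated best on replicate 1. Their Spearman rho was 0.696, 0.339, 0.288 and 0.441 on replicates 1 to 4. Any pair of stage 9 arrays correlated across probes with a Spearman rho of 0.127 to 0.336, a description only, since probes are not independent. The deposited ratios carry no intensities, so neither the level of any gene nor its signal over background could be checked, and the stage could not be checked against absolute marker levels.

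RNA of gcm itself was not called different at stage 9. Its log2 ratio was -0.16, 0.33, 0.40 and -0.038 on replicates 1 to 4, so that ectopic embryos lay above wild type on 2 arrays and below on the other 2. The fitted ratio was 0.13 ± 0.29 (SE, n = 4), with an adjusted p of 0.876 in the limma fit over all 58 arrays. At stages 10 to 16 the same probe averaged 1.52, and the difference of stage 9 from that mean was -1.38 ± 0.31 (SE), with an adjusted p of 0.0315. The difference of stage 9 from stage 10 alone was -0.79, with an adjusted p of 0.968. The ratio at each later stage was 0.92 at stage 10, where it was not called (adjusted p = 0.0548), 1.12 at stage 11, 1.59 at stage 12, 1.85 at stage 13, 1.47 at stage 14, 1.88 at stage 15 and 1.80 at stage 16. The sources do not say whether the probe reads the transgene, the endogenous gene or both.

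The direct regulators and targets gave no call either. The homologue gcm2 had log2 ratios of 0.11, -0.17 and 0.26 on replicates 2, 3 and 4, with no value on replicate 1. The homeobox gene repo, which is expressed in nearly all lateral glia, had -0.44, -0.062 and 0.11 on replicates 1, 3 and 4 (fit -0.17 ± 0.23 SE, adjusted p = 0.783). A G-protein signalling regulator with a Gcm-bound glial promoter, loco, lay slightly above 0 on all 4 arrays, at 0.096, 0.21, 0.18 and 0.09 (fit 0.14 ± 0.17 SE, adjusted p = 0.732). Of 14 tested genes of the glial list, 0 were called higher and 4 lower, where 6.49% of all genes tested were called higher and 6.33% lower, and the median was -0.068, against -0.014 over all genes tested. The 4 were the FGF receptor gene htl (-1.11), the sodium pump subunit gene nrv2 (-0.96) and the septate junction genes Gli (-0.77) and Nrx-IV (-0.77). Outside glia, these genes act in epithelia or mesoderm of the embryo. Without replicate 1 none of the 13 glial genes then tested was called.

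**Figure D1:**
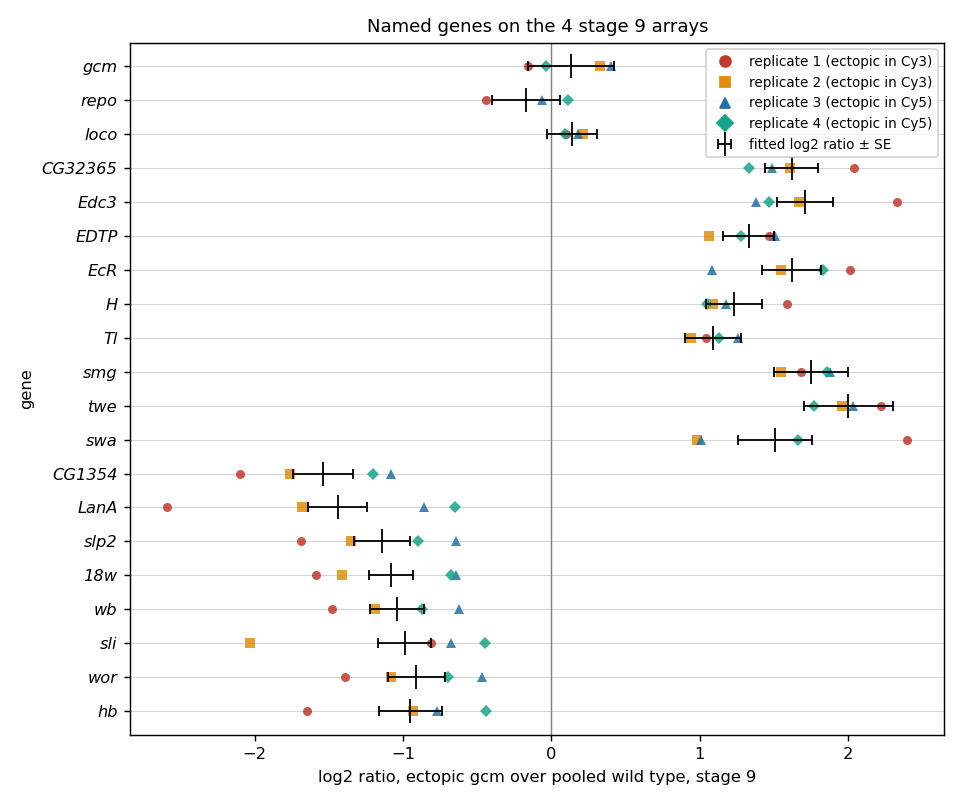
Log2 ratio of ectopic gcm over pooled wild type at stage 9 (x axis) for 20 genes (y axis). Coloured symbols are the 4 arrays, and the black tick with its bar is the fitted ratio ± SE. The arrays of gcm, repo and loco surround or adjoin 0, whereas those of smg (1.55 to 1.88) and Tl (0.94 to 1.26) are close together above 0 and those of LanA (-2.59 to -0.65) are spread out below it.

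Beyond gcm, many genes differed between ectopic and wild-type embryos. A gene was called when its Benjamini-Hochberg adjusted p fell below 0.05 in the limma fit, in which the 4 stage 9 arrays draw on the spread of all 58. Of 9916 genes tested with 1 probe each, 1272 were called (12.8%), 644 higher (6.49%) and 628 lower (6.33%) in ectopic embryos. At least a 2-fold difference was fitted for 411 of the higher and 215 of the lower genes. The sign was the same on every array that measured the gene for 587 of the higher (91.1%) and 569 of the lower genes (90.6%). When only probes measured on all 4 arrays were tested, 1351 of 6477 genes were called (20.9%), 669 higher and 682 lower. For a list whose members were mostly measured on all 4 arrays, the share of all genes is thus a low comparator.

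The calls over all genes tested lean on the spread of the other arrays and on replicate 1. When the 4 stage 9 arrays were fitted alone, limma called 0 genes, with 1776 of 17749 probes at an unadjusted p under 0.05. Without replicate 1, 351 of 9246 genes were called, 210 higher and 141 lower, although 1244 of 1248 genes called with it and still tested kept their sign. The median ratio of the higher genes was 1.67, 0.95, 0.93 and 0.78 on replicates 1 to 4, and that of the lower genes -1.50, -0.93, -0.46 and -0.55. The ratios were thus largest on replicate 1 in both directions, and the lower genes fell further from 0 on both arrays with ectopic RNA in Cy3 than on both with it in Cy5. Embryos of the cross and of the parental stocks can also differ in genetic background or in exact age within the stage. Neither can be told apart here from an effect of gcm, and in whole embryos fewer cells of a type cannot be told apart from less RNA per cell.

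The genes with the smallest adjusted p, chosen after their values were seen, are given as a description. All 12 higher and all 12 lower ones were also called without replicate 1, which is no independent support, since the same arrays were used to choose them. The higher gene l(1)G0196 had no value on replicate 1, so leaving that array out could not test its call. Among the higher ones was Edc3, a factor of mRNA decapping and P-bodies, with log2 ratios of 2.33, 1.67, 1.38 and 1.47 (fit 1.71 ± 0.19 SE, 3.28-fold higher, adjusted p = 1.53e-07). EcR, the ecdysone receptor, had 2.01, 1.55, 1.08 and 1.83 (fit 1.62 ± 0.20 SE, adjusted p = 8.83e-07). All values of both genes lay above 0, at more than 1 on each array. In the ecdysone list EcR was the only call among 10 genes tested, of which 8 lay below 0, with a median of -0.30. EDTP, an egg-derived phosphatase, had 1.47, 1.06, 1.51 and 1.28 (fit 1.33 ± 0.17 SE, adjusted p = 1.56e-06). PEK, a kinase of the translation factor eIF2α, was fitted at 1.67, the aminotransferase Got1 at 2.17 and csw, the fly SHP2 phosphatase, at 1.65. Without replicate 1, Got1 was fitted at 1.56 and csw at 1.25, and both were still called.

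Receptor and laminin genes were among the 12 lower ones. The Toll-family receptor 18w had log2 ratios of -1.59, -1.41, -0.64 and -0.68 (fit -1.08 ± 0.15 SE, 2.11-fold lower, adjusted p = 5.14e-06). LanA, the alpha chain of laminin, had -2.59, -1.68, -0.86 and -0.65 (fit -1.44 ± 0.20 SE, 2.72-fold lower, adjusted p = 5.94e-06). Wing blister (wb), the other laminin alpha chain, had -1.48, -1.19, -0.62 and -0.87 (fit -1.04 ± 0.18 SE, adjusted p = 7.85e-05). For all 3 genes every array lay below 0, and both Cy3 arrays lay below both Cy5 arrays. The mediator subunit gene MED17 (-1.20), the 5-methylcytosine dioxygenase homologue Tet (-1.08) and Oga, which removes O-GlcNAc from proteins (-1.31), were also among the 12.

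Of 14 tested proneural and early neuroblast genes, 0 were called higher and 5 lower (all genes, 6.33% lower), and the other 9 were not called. Without replicate 1, 2 of 13 were called lower. Of the 14, 13 had a ratio below 0, and the median was -0.75. The zinc-finger gene wor, a Snail-family factor of neuroblasts, had -1.39, -1.08, -0.47 and -0.70 (fit -0.91 ± 0.19 SE, adjusted p = 0.00111). The zinc-finger gene nerfin-1, which acts in new neurons, had -0.77, -1.71, -0.83 and -1.10 (fit -1.10 ± 0.30 SE, adjusted p = 0.0112). Both stayed below 0 on every array and were called without replicate 1, unlike sna (-0.91), dpn (-0.79) and the Sox gene D (-0.71), whose adjusted p without it was 0.0823, 0.372 and 0.213. The proneural genes ac and l(1)sc were not called, each with a fitted ratio of -0.95 and adjusted p of 0.234 and 0.176.

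Temporal factors, which neuroblasts express in sequence, all had ratios below 0. Of the 6, 4 were called lower (all genes, 6.33%), with a median of -0.84. The first factor of the sequence, hb, had -1.65, -0.93, -0.77 and -0.44 (fit -0.95 ± 0.21 SE, adjusted p = 0.00192), and Kr, the next, had -2.12, -1.08, -0.033 and -0.61 (fit -0.96 ± 0.24 SE, adjusted p = 0.00568). The POU gene nub was fitted at -0.84 and grh, a later factor, at -0.83, whereas cas (-0.51) and pdm2 (-0.20) were not called. Replicate 1 was the lowest of the arrays for hb, Kr, nub and grh, and without it 0 of the 6 were called (adjusted p = 0.0835 for hb, 0.218 for Kr, 0.0805 for nub and 0.0893 for grh).

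Among asymmetric division genes, 1 of 14 was called higher, about the share of all genes (6.49%), and 2 lower (all genes, 6.33%), and the median was 0.019. The adaptor genes mira (-0.92) and pon (-0.77), which carry fate determinants into one daughter of the neuroblast, were lower, and par-6 of the apical complex was higher at 0.87. None of these 3 was called without replicate 1 (adjusted p = 0.188, 0.179 and 0.0618). Of 11 neuronal differentiation genes only elav, an RNA-binding protein of neurons, was called, at -3.34, -1.43, -0.66 and 0.12 on the 4 arrays (fit -1.33 ± 0.25 SE, adjusted p = 0.000385). Its array values ran across 0, and without replicate 1 its adjusted p was 0.0763.

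Of 19 tested Notch pathway genes, 2 were called higher (all genes, 6.49%) and 3 lower (6.33%), 14 were not called, and the median was -0.73. Without replicate 1, 1 was called higher and 0 lower. Hairless (H), the antagonist that holds Su(H) in a repressor complex, had 1.59, 1.09, 1.18 and 1.05 (fit 1.23 ± 0.19 SE, 2.34-fold higher, adjusted p = 3.08e-05). Its corepressor Groucho (gro) was fitted at 0.96. The Notch-responsive genes E(spl)mdelta-HLH (-1.20), E(spl)malpha-BFM (-1.05) and Ocho (-1.07) were lower. H alone of the 5 was called without replicate 1, where the adjusted p was 0.137 for gro, 0.0683 for E(spl)mdelta-HLH, 0.269 for E(spl)malpha-BFM and 0.301 for Ocho.

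**Figure D2:**
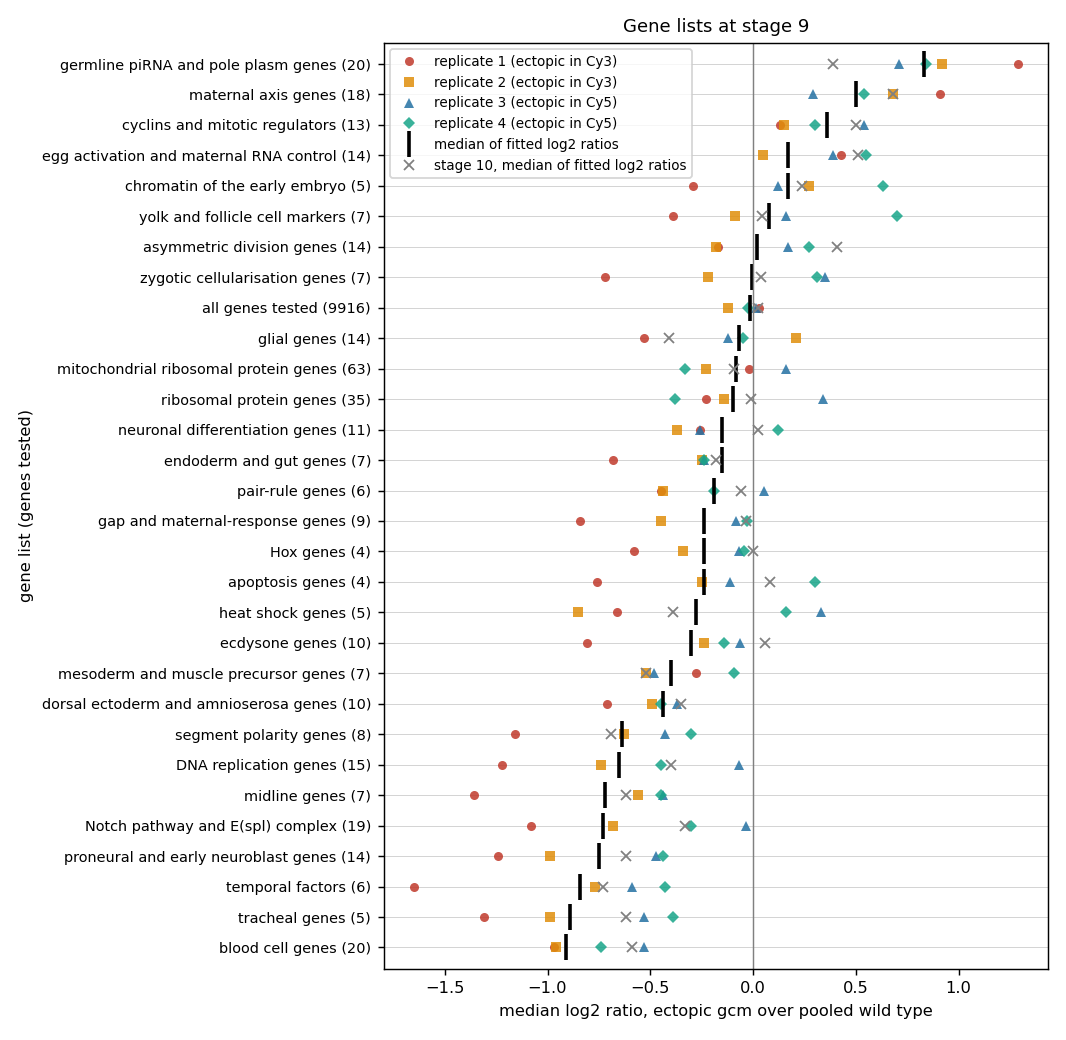
Median log2 ratio of ectopic gcm over pooled wild type (x axis) for each gene list, with the number of genes tested (y axis, ordered by the stage 9 median). Coloured symbols are medians on single arrays, black ticks medians of the fitted stage 9 ratios and grey crosses those of stage 10. Germline piRNA and pole plasm genes stand highest at 0.83 and blood cell genes lowest at -0.91, and all genes tested lie at -0.014.

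Blood cell genes had the largest count of lower calls of the 29 lists, but not the largest share. The shares of temporal factors (4 of 6), tracheal genes (3 of 5) and midline genes (4 of 7) were larger. Of 20 blood cell genes tested, 0 were called higher and 11 lower (all genes, 6.33%), with a median of -0.91. Without replicate 1, 7 of 18 were called lower and the median was -0.83. Ppn and Pvr, given below, were among the 7 but had no value on replicate 1. Leaving it out could thus not test their calls. The 11 comprise genes of basement membrane and genes of plasmatocyte surfaces or fate. The laminin genes LanB1 (-1.03) and LanB2 (-1.01) joined LanA, and papilin, Ppn, had -2.08, -0.93 and -0.83 on replicates 2, 3 and 4 (fit -1.32 ± 0.26 SE, adjusted p = 0.000663). SPARC, a collagen-binding matrix protein, had -0.08, -0.98, -2.04 and -1.28 (fit -1.10 ± 0.24 SE, adjusted p = 0.00186). For SPARC replicate 1 was the array nearest to 0, the opposite of LanA.

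The PDGF- and VEGF-receptor gene Pvr, which plasmatocytes need to survive and migrate, had -1.98, -1.46 and -0.27 on replicates 2, 3 and 4 (fit -1.25 ± 0.28 SE, adjusted p = 0.00216). The peroxidase gene Pxn had 0.87, -0.89, -3.77 and -0.87 (fit -1.17 ± 0.35 SE, adjusted p = 0.0275), so replicate 1 opposed the other 3 arrays. The engulfment receptor genes NimC4 (-1.22) and crq (-0.82), the GATA factor srp (-0.57) and its partner ush (-0.69) were also lower. These last 4 lost their calls without replicate 1, at adjusted p of 0.0535, 0.533, 0.178 and 0.129. The collagen IV genes Col4a1 and vkg and the plasmatocyte genes Hml, eater and NimC1 were not called, and neither were the crystal cell genes lz (0.14), PPO2 (0.83) and PPO1 (-1.18), with adjusted p of 0.838, 0.27 and 0.101.

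Several of these genes are not specific to blood at this stage. The laminins are also expressed by the mesoderm, and srp by the endoderm primordia. Of 7 mesoderm genes, 3 were called lower (htl, sna and lmd; all genes, 6.33%), with a median of -0.40, and of 7 endoderm and gut genes 3 were called lower (srp, fkh and bowl), with a median of -0.15. Without replicate 1 the counts were 1 and 0, with lmd fitted at -0.96. The myoblast factor lmd had -0.28, -0.48, -2.36 and -0.094, so its call rested on replicate 3, and the mesoderm determinant twi was not called (-0.40 ± 0.14 SE, adjusted p = 0.0589).

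Of 7 midline genes 0 were called higher and 4 lower (all genes, 6.33% lower), 3 were not called, all 7 had a ratio below 0, and the median was -0.72. The repellent ligand gene sli had -0.81, -2.03, -0.68 and -0.45 (fit -0.99 ± 0.18 SE, adjusted p = 0.000168) and its receptor gene robo1 had -1.97, -1.14, -0.62 and -0.56 (fit -1.07 ± 0.20 SE, adjusted p = 0.000385). Both were below 0 on every array and were called without replicate 1. The sorting receptor gene comm, which keeps Robo1 off growth cones, was fitted at -0.95, and fra, a netrin receptor gene, at -0.72. Neither of these was called without replicate 1 (adjusted p = 0.239 and 0.165). Of 5 tracheal genes 3 were called lower, against the same 6.33%, with a median of -0.89: the nuclear factor gene rib (-0.98), the apical membrane gene uif (-1.04) and the POU gene vvl (-0.51). The calls of rib and uif held without replicate 1, and that of vvl did not (adjusted p = 0.293).

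Of the segmentation lists, pair-rule genes gave 1 call and segment polarity genes 3, where 6.33% of all genes were called lower. The pair-rule gene slp2, a forkhead factor, had -1.69, -1.35, -0.64 and -0.90 (fit -1.14 ± 0.19 SE, adjusted p = 7.78e-05), the only call among 6 pair-rule genes, whose median was -0.19. It was called without replicate 1. Of 8 segment polarity genes 3 were lower, the selector gene en (-0.82), the Hedgehog receptor gene ptc (-0.86) and the Hedgehog effector gene ci (-0.91). None of these 3 was called without replicate 1 (adjusted p = 0.337, 0.13 and 0.135). Of 9 gap genes only hb and Kr were called, and of 4 Hox genes 0 were called, with medians of -0.24 in both lists. In the dorsal ectoderm list Ance, a peptidase gene of the amnioserosa (-0.92), and ush were lower among 10 tested, and Ance was called without replicate 1 (-0.67, adjusted p = 0.0435).

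Lists of genes with maternal roles had medians above 0. Germline piRNA and pole plasm genes had the highest list median, 0.83, with 6 of 20 called higher (all genes, 6.49%), 1 lower (6.33%) and 16 above 0. Without replicate 1 the median was also 0.83 and 3 were called higher. The Tudor-domain gene SoYb had 5.38, 1.92, 1.42 and 1.20 (fit 2.48 ± 0.45 SE, adjusted p = 0.000241) and was fitted at 1.58 without replicate 1. The piRNA factor gene mael had 1.61, 1.33, 1.53 and 1.36 (fit 1.46 ± 0.28 SE, adjusted p = 0.000564), and squ had 2.08, 1.22, 1.95 and 1.33 (fit 1.64 ± 0.34 SE, adjusted p = 0.000994). The values of mael and squ lay above 1 on all 4 arrays.

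The Piwi-family gene aub (1.05), tej (1.89) and papi (0.88) were also higher, and tud, the scaffold of germ granules, was lower (-0.99). Without replicate 1 these 4 were not called (adjusted p = 0.169, 0.0913, 0.181 and 0.127). The founding member of that family, piwi, was not called, with 1.34, 0.67 and 0.58 on replicates 2, 3 and 4 (adjusted p = 0.461).

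Egg activation genes gave 5 higher and 1 lower call among 14 (all genes, 6.49% higher and 6.33% lower), with a median of 0.17. The RNA-binding repressor gene smg, which triggers the clearance of maternal mRNA, had 1.68, 1.55, 1.88 and 1.86 (fit 1.75 ± 0.25 SE, 3.35-fold higher, adjusted p = 7.81e-06). Marf1, an RNA-binding factor of the oocyte, had 4.03, 0.90, 1.88 and 2.63 (fit 2.36 ± 0.48 SE, adjusted p = 0.000856). The arrays of smg lay between 1.55 and 1.88, and those of Marf1 were far apart. The genes plu (2.12), a subunit of the egg activation kinase, cup (1.41), a translational repressor, and me31B (0.78), an RNA helicase of repressed mRNPs, were higher, and the deadenylase gene twin was lower (-0.83). Only smg was called without replicate 1, where the adjusted p was 0.0569 for Marf1, 0.17 for plu, 0.146 for cup, 0.142 for me31B and 0.0664 for twin.

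**Figure D3:**
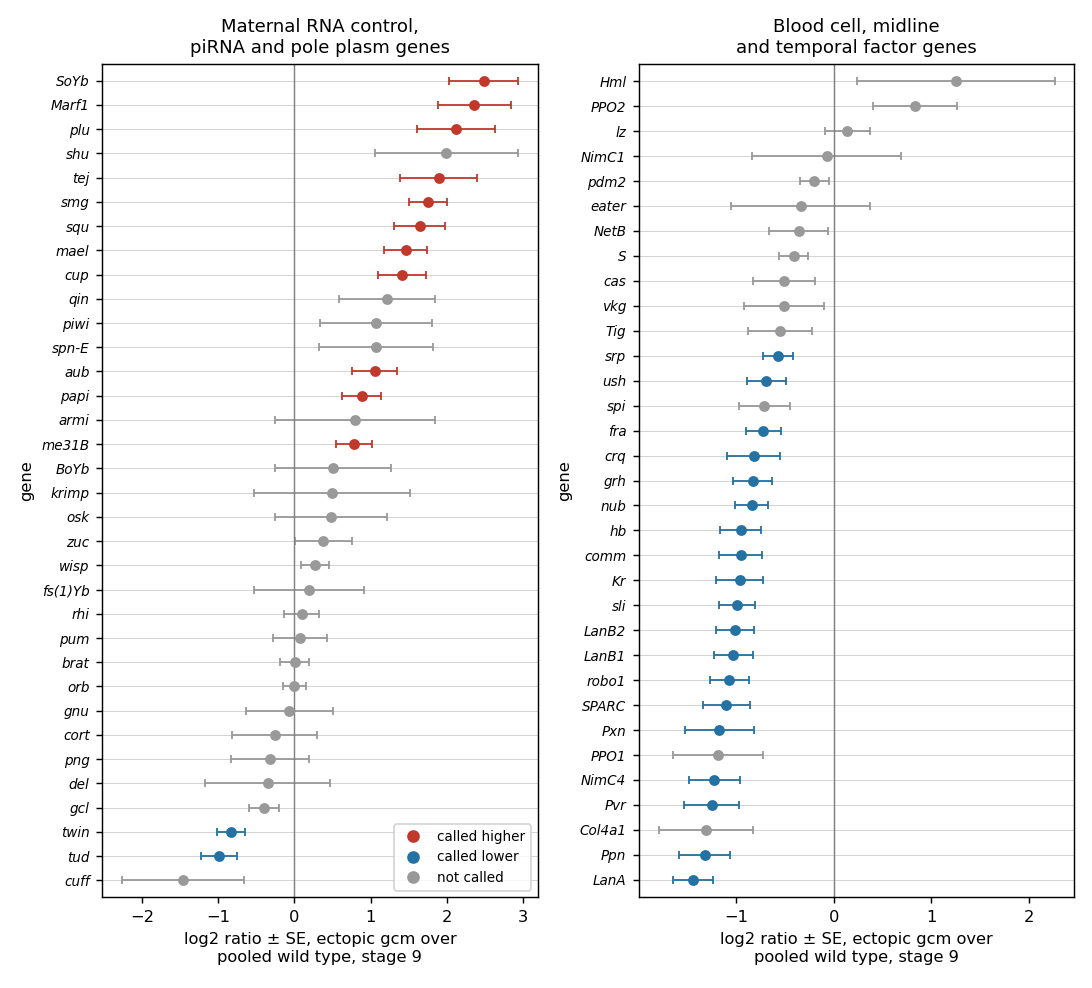
Fitted log2 ratio ± SE of ectopic gcm over pooled wild type at stage 9 (x axis) for the tested members (y axis) of maternal RNA control, piRNA and pole plasm lists (left) and of blood cell, midline and temporal factor lists (right). Red marks genes called higher, blue called lower and grey not called. SoYb (2.48) and Marf1 (2.36) are the highest calls on the left, and LanA (-1.44) and Ppn (-1.32) the lowest on the right.

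Of 18 maternal axis genes 4 were called higher (all genes, 6.49%) and 1 lower (6.33%), with a median of 0.50. The receptor gene of the dorsoventral pathway, Tl, had 1.04, 0.94, 1.26 and 1.13 (fit 1.09 ± 0.19 SE, adjusted p = 0.00013), and swa, which localises bicoid mRNA, had 2.40, 0.98, 1.01 and 1.66 (fit 1.51 ± 0.25 SE, adjusted p = 6.30e-05). Further down the same pathway, the kinase gene pll (0.88) and cact, the inhibitor of Dorsal (0.65), were higher. The terminal patterning gene tsl had -0.86, -2.60 and -2.08 on replicates 2, 3 and 4 (fit -1.86 ± 0.45 SE, adjusted p = 0.00531). Tl and swa were called without replicate 1, and pll and cact were not (adjusted p = 0.335 and 0.149). No value of tsl came from replicate 1, so leaving that array out could not test its call. Yolk and follicle cell markers, RNAs made by the mother's ovary and fat body, gave 0 calls among 7 and a median of 0.076.

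Of 13 tested cyclins and mitotic regulators 1 was called higher, about the share of all genes (6.49%), and 2 lower (6.33%), with a median of 0.36. The Cdc25 phosphatase gene twe, supplied maternally and used in meiosis and the cleavage divisions, was the clearest of the cell cycle genes, at 2.22, 1.96, 2.03 and 1.77 (3.99-fold higher in the fit, with an SE of 0.30 on the log2 scale, adjusted p = 1.42e-05). The gene fzr, which drives the exit from the mitotic cycle (-0.93), and trbl, an inhibitor of Cdc25 activity (-1.02), were lower, and trbl was not called without replicate 1 (adjusted p = 0.173). Of 15 DNA replication genes 1 was called higher, about the share of all genes (6.49%), and 2 lower (6.33%), with a median of -0.65. The origin recognition gene Orc1 was higher (0.82) and Orc5 (-0.90) and Mcm3 (-0.81) lower. None of these 3 was called without replicate 1 (adjusted p = 0.0508, 0.238 and 0.202).

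Single calls came from other lists, beside 6.49% of all genes called higher. The cellularisation gene slam had 2.66, 1.65, 1.60 and 1.67 (fit 1.90 ± 0.39 SE, adjusted p = 0.00108), the only call among 7. The embryonic linker histone gene BigH1 had 1.07, 2.49 and 2.09 on replicates 2, 3 and 4 (fit 1.85 ± 0.54 SE, adjusted p = 0.0228). It was the only call among 5 chromatin genes of the early embryo, whose median was 0.17. The initiator caspase gene Dronc had 1.91, 1.16, 0.91 and 1.10 (fit 1.27 ± 0.27 SE, adjusted p = 0.00153). It was the only call among 4 apoptosis genes tested, of which 3 lay below 0, with a median of -0.24. The arrays of slam, BigH1 and Dronc all lay above 0, and without replicate 1 slam and Dronc were called and BigH1 was not (adjusted p = 0.0513). BigH1 had no value on replicate 1 and its fit stayed at 1.85. Its loss thus does not measure dependence on that array. No heat shock gene of 5 tested was called, and 0 of 35 cytosolic ribosomal protein genes, whose median was -0.10. Of 63 mitochondrial ribosomal protein genes 0 were called higher and 4 lower, about the share of all genes called lower (6.33%), with a median of -0.081, and 1 was lower without replicate 1.

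Most of the genes with the widest fitted ratios lacked a value on 1 array. Of the 15 highest called genes with the same sign on every array, 5 were measured on all 4 arrays and 9 had an array at a size of 5 or more. Of the 15 lowest, 1 was measured on all 4 arrays and 9 had such an array. Fmo-1, a flavin monooxygenase gene, had 0.35, 6.86 and 7.81 on replicates 1, 2 and 3 (fit 5.14 ± 1.34 SE, adjusted p = 0.0108), and CG14034 had -0.33, -8.39 and -1.52 on replicates 2, 3 and 4 (fit -3.41 ± 1.05 SE, adjusted p = 0.0372). For both genes the fit rests on 1 or 2 arrays. The arrays of CG31633 (3.17, 2.96 and 4.60 on replicates 2, 3 and 4) and of CG5084 (-3.35, -2.90 and -3.79) were all far from 0, with adjusted p of 1.62e-05 and 0.00957. CG30440 had 5.93, 2.04, 2.84 and 1.32 (fit 3.03 ± 0.35 SE, adjusted p = 1.98e-07) and was fitted at 2.10 without replicate 1.

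The others of the 15 highest had fitted ratios between 2.92 and 5.11. They were the tubulin ligase gene TTLL1A, CG31997, CG10148, CG32109, the odorant-binding protein gene Obp93a, CG12307, CG9458, CG13813, CG13332, CG18586, CG5966 and CG9541. Of those tested without replicate 1, CG9458 and CG18586 lost their call (adjusted p = 0.126 and 0.0875). CG18586 had no value on replicate 1 and was fitted at 2.97 either way. Its loss thus does not measure dependence on that array. The others of the 15 lowest lay between -2.85 and -2.22. They included the intraflagellar transport gene Oseg5, the mucin gene Muc55B, the glucan-binding immune gene GNBP3, the cuticle protein gene Cpr49Ac and Bfc, with CG17047, CG4681, CG4409, CG14143, CG16863, CG1246, CG5056 and CG15117. Without replicate 1, CG14034, GNBP3 and CG5056 lost their call (adjusted p = 0.0746, 0.0531 and 0.669). CG5056 was then fitted at -0.38, against -2.24 with replicate 1. CG14034 and GNBP3 had no value on replicate 1 and kept their fits of -3.41 and -2.47. Leaving that array out could thus not test their calls.

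Most genes called at stage 9 lay on the same side of 0 in the separate embryos of stage 10, which were hybridised against their own stage 10 wild-type pool. Of 641 higher genes measured there, 600 were above 0 (93.6%), against 51.7% of all tested genes, and of 628 lower genes 608 were below 0 (96.8%), against 48.3%. Of these, 391 were called higher and 118 lower at stage 10, where 5.31% and 1.66% of all genes tested were called in these directions, and 0 were called in the opposite direction. Without stage 9 replicate 1 the share on the same side was 94% (330 of 351 genes). Both stages come from 1 fit with a common dye term, and the same 2 stocks served as the wild type at every stage.

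The differences were smaller at later stages, while the ratio of gcm was higher. The higher genes had a median of 1.14 at stage 9, where they were chosen, then 0.95 at stage 10, 0.81 at stage 11, 0.64 at stage 13 and 0.28 at stage 16. The lower genes had -0.90 at stage 9, -0.59 at stage 10, -0.47 at stage 11, -0.19 at stage 13 and -0.21 at stage 16. Since the genes were chosen at stage 9, the step from there to stage 10 is a description without a test. At stage 16, 82.1% of the higher and 81.1% of the lower genes kept their side. Over probes, 1663 of 17749 were called at stage 9 (9.37%), 1012 of 23275 at stage 10 (4.35%) and 51 of 22969 at stage 16 (0.222%). These sets of probes differ, since each stage had its own filter on measured arrays. Among the 9916 genes tested at stage 9, 609 were called higher and 185 lower at stage 10, against 644 and 628 at stage 9.

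**Figure D4:**
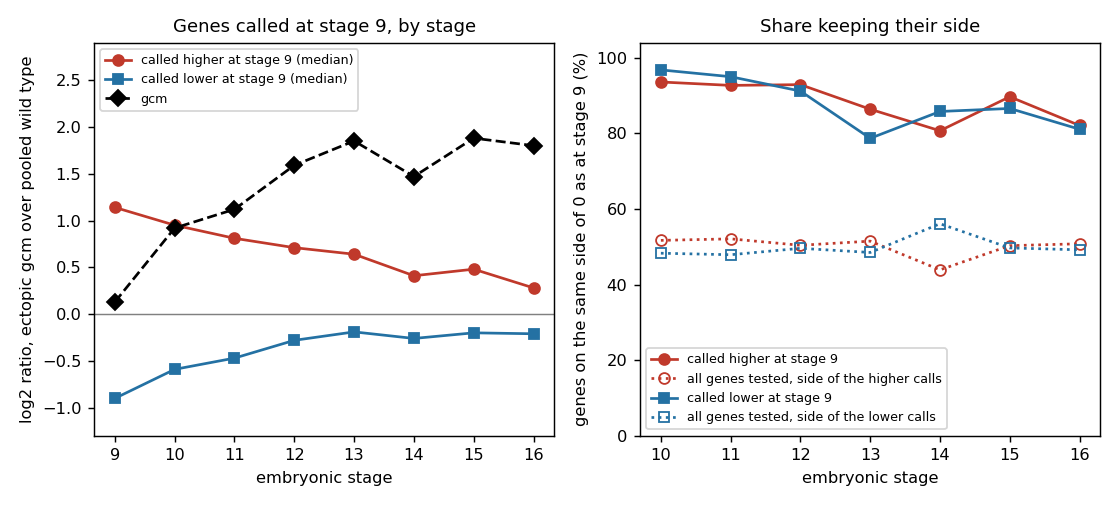
Left, median log2 ratio of ectopic gcm over pooled wild type (y axis) at embryonic stages 9 to 16 (x axis) for genes called higher or lower at stage 9, with the ratio of gcm. Right, share of these genes on their stage 9 side of 0 at each later stage (y axis, %), with the share among all genes tested. The medians approach 0 with stage while gcm lies at 0.13 at stage 9 and at 1.80 at stage 16.

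Genes called higher at stage 9 lay on either side of 0 later. EcR was fitted at 1.61 at stage 10 and 0.95 over stages 10 to 16, smg at 1.84 and 2.09, twe at 1.81 and 1.86, mael at 1.63 and 1.69 and slam at 1.99 and 1.90. Over stages 10 to 16, Obp93a was at -0.016, Fmo-1 at -0.039, CG9541 at -0.14, CG32109 and CG12307 at -0.33 each, CG10148 at -0.41 and CG9458 at -0.45. LanA, SPARC and Pvr, of the blood cell list, were nearer to 0 later. LanA was fitted at -0.58 at stage 10 and -0.36 over stages 10 to 16, and its difference between stage 9 and that mean was -1.08, with an adjusted p of 0.0127. SPARC was at -0.49 and -0.33, and Pvr at -0.62 and -0.44, without a call of the difference (adjusted p = 0.181 and 0.233).

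Few genes set stage 9 apart from later stages. The difference of stage 9 minus the mean of stages 10 to 16 was called for 40 of 9907 genes (0.404%), 27 above and 13 below. Of the genes called both in this difference and at stage 9, 26 stood above the later mean and 11 below it. Below it stood, besides LanA, the FGF receptor gene htl, with -2.03, -1.16, -0.72 and -0.51 at stage 9 and a later mean of 0.14. The netrin receptor gene unc-5 had -3.48, -1.07, -0.44 and -0.49 (difference -1.12, adjusted p = 0.0441), the clathrin adaptor gene AP-2alpha had -4.06, -0.94, -0.68 and -0.56 (difference -1.52) and Oga differed by -1.06. For unc-5 and AP-2alpha replicate 1 lay far below the other 3 arrays, and their stage 9 adjusted p without it was 0.05 and 0.0514, so that AP-2alpha was no longer called.

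Above the later mean, CG9698 had 9.44, -0.65 and 7.29 on replicates 2, 3 and 4, the serpin gene Spn42Da had 7.84, 0.97, 1.29 and 0.68, and CG7423 had 7.27, -0.35 and 1.78. In each case 1 or 2 arrays stood several log2 units above the rest. Obp93a was steadier, with 5.67, 3.27, 1.89 and 2.85 and a later mean of -0.016 (difference 3.44, adjusted p = 0.014). Without replicate 1 only 7 of 16132 probes were called in this difference, against 61 of 17712 with it (0.344%). Between stage 9 and stage 10 alone, limma called 2 of 17528 probes (0.0114%), TTLL1A above and CG17047 below stage 10. At stage 9 TTLL1A had 8.84, 6.74 and 0.30 on replicates 1, 2 and 3. CG17047 had -1.12, -1.33 and -5.66 on replicates 2, 3 and 4. Each of these calls leaned on 1 or 2 extreme values, and once such extremes were removed neither probe could be tested.

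The calls were spread over the chromosome arms. Higher genes made up between 5.98% of tested genes on 3R and 7.34% on 2L, and lower genes between 5.56% on 3R and 7.6% on 2R. On the small chromosome 4, 8 of 52 genes were higher (15.4%) and 2 lower. Called genes were longer than others by the RefSeq annotation, with medians of 3474 bp for higher and 3677 bp for lower genes, against 2345 bp for genes not called. The part of gene length in these calls was not tested.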

How the data were processed

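Whole-embryo mRNA was compared on 2-colour arrays that carry each probe in 2 spots. Per the labels, Cy5 and Cy3 signals were scanned with GenePix, and an array was kept by the submitters only where repeat spots were reproducible. In the deposited ratios of stage 9, the 2 spots of a probe correlated with a Spearman rho of 0.288 to 0.696. Each deposited value is the log2 of a spot's Cy5 to Cy3 ratio, and background correction and normalization are not given in the sources used here. The depth of an array has no counterpart in reads, and the number of arrays limits the precision.

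Exact zeros and sizes of 9 or more were set to missing, both spots averaged, arrays centred on their median and the sign turned where ectopic RNA was in Cy3. A least-squares fit per probe on all 58 arrays held 14 groups and a dye term per experiment, with variances moderated in limma 3.58.1 (R 4.3.3), two-sided tests and Benjamini-Hochberg adjustment. A probe needed 3 stage 9 arrays and both dye orientations. Simulated data with 17749 probes held 200 shifted probes, of which the test recovered 23 of 100 at a log2 shift of 1 and 54 of 100 at a shift of 2, with 6 false calls among 83. Each simulated probe had the same spread on all 58 arrays, unlike the real arrays. The simulation therefore cannot give the rate of false calls in the real data. Figures were drawn with matplotlib.

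Of 23808 probes, 13455 carry 1 gene, 153 several and 10200 none in the platform annotation, and 12851 were updated through Entrez to RefSeq. A gene with several probes was represented by that with the most measured arrays. Genes were named as members of lists, as the 15 highest and 15 lowest calls with the same sign on every array, and as the 8 highest and 8 lowest differences from later stages among genes called in both. Members and lists were chosen with earlier results of these data known. Replicate numbers were not used to pair arrays across stages, since 0 of 4 stage 9 arrays deviated most like arrays of their own number. With 4 arrays this cannot decide whether arrays shared a batch. No sequences were used here. Alternatives covered the arrays fitted, dye term, centring, scaling, zeros, spot and missing-value filters, extreme values, array weights and each left-out replicate.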

Additional observations from a re-analysis of the deposited data

Results flagged for a closer look

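Arrays far from their group were looked for with Dixon's criterion, which chance meets in about 1 in 20 groups of 4. It was met by 12 of 105 named genes with 4 arrays. Replicate 1 was the distant array for CG9458 (4.75), CG5966 (7.25), CG5056 (-7.79), Spn42Da (7.84), AP-2alpha (-4.06), Got1 (4.21), CG8468 (-2.20), slam (2.66), nub (-1.71) and bowl (-1.73). Replicate 2 was it for CG1785 (-4.33) and replicate 3 for lmd (-2.36).

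Differences between stage 9 and the mean of stages 10 to 16 passed the test for the named genes below, with all 4 stage 9 arrays in the fit. Without replicate 1, 6 of 54 probes called in this difference and still tested kept their call (11.1%). Stage 9 stood above for TTLL1A (4.61), CG31997 (3.67), Obp93a (3.44), CG30440 (1.68), CG9541 (3.06), CG9698 (5.82), CG7423 (3.33), Spn42Da (2.67) and CG8399 (2.62). It stood below for CG17047 (-2.33), AP-2alpha (-1.52), CG1785 (-1.44), htl (-1.25), unc-5 (-1.12), LanA (-1.08), Oga (-1.06), CG1354 (-1.06), Ack-like (-0.94), CG8468 (-0.88) and gcm itself (-1.38).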

How the results depend on the processing

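Of 1663 probes called at stage 9, the count was 0 with only the 4 stage 9 arrays, 1050 with a replicate block, 65 with arrays not centred and 935 with zeros kept. Leaving out each replicate gave 475 to 1574, the lowest without replicate 1. Arrays not centred moved the median of all probes to -0.29, with 30 higher and 35 lower calls, and the replicate block gave 607 higher and 443 lower. Every other setting listed under processing kept the count within 1.5 times, between 1512 and 2247 where no replicate was left out. The share of genes called moved more, to 1740 of 3778 with reproducible spot pairs (46.1%) and 1351 of 6477 measured on all 4 arrays (20.9%), against 12.8%. Of 61 probes differing from later stages, the count was 34 with no dye term, 32 with a replicate block, 3 not centred, 21 scaled, 7 with zeros kept, 197 with reproducible spot pairs, 95 with no filter and 145 with an own stage 9 dye term, a setting chosen after seeing the data; leaving out a replicate gave 7 to 165. For stage 9 minus stage 10, with 2 calls, the settings gave 0, 1, 5 or 21, and leaving out a replicate 0 to 5. The ratio of gcm, 0.13, was -0.13 not centred and 0.015 with a replicate block. Likewise gcm2, 0.032, was -0.33 not centred, -0.086 with print blocks centred and -0.025 with array weights, and loco was -0.12 not centred. Of 2284 values of 139 named genes under the alternatives, 1835 kept their call and side, 442 lost the call, 3 gained one and 4 changed sign. The causes were not tested. With 4 arrays and no intensities, a difference that misses the threshold is not shown to be absent.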

Other observations

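Gene groups picked after their values were seen are given here as descriptions, and their counts stand against 6.49% of all genes called higher and 6.33% called lower at stage 9. These shares are low comparators, since most members here were measured on all 4 arrays. When only such probes were tested, 669 of 6477 genes were called higher and 682 lower. The genes picked for the 2 parts of the proteasome had medians on opposite sides of 0 at stage 9. They do not include all 37 tested genes with names of proteasome subunits. Of those 37, 20 lay above 0, 7 were called higher and 6 lower, and the median was 0.26. All 12 genes picked for the 20S core, the proteolytic cylinder, had a ratio above 0, 6 were called higher and 0 lower, and the median was 0.77. Prosalpha4 had 1.25, 0.82, 1.23 and 0.68 on replicates 1 to 4 (fit 1.00 ± 0.27 SE, adjusted p = 0.0132). Of 14 genes picked for the 19S regulator, which recognises ubiquitin and unfolds substrates, 12 lay below 0, 0 were called higher and 6 lower, and the median was -0.61. Rpn1 had -1.24, -0.91, -0.52 and -0.57 (fit -0.81 ± 0.19 SE, adjusted p = 0.00398). On replicates 1 to 4 the core median was 1.03, 0.75, 0.92 and 0.28, and the regulator median -1.23, -0.78, -0.38 and -0.25. Calls in these groups were not counted without replicate 1. At stage 10 the core median was 0.88 with 7 called higher, and the regulator median -0.38 with 0 called.

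Of 6 COPI vesicle coat genes 5 were called lower (all genes, 6.33%), with a median of -0.89, and alphaCOP had -1.69, -1.15, -0.43 and -0.73 (adjusted p = 0.00012). All 8 tested subunits of the CCT chaperonin lay below 0, with 3 called and a median of -0.51. All 4 laminin subunits were called lower, with a median of -1.03. The planar polarity genes ds (-1.31), stan (-1.16), fj (-1.07) and Vang (-0.67) were called lower, as were 7 of 11 genes of EGF receptor signalling, in which csw (1.65) was the 1 higher call. Of 7 innexins, which form gap junctions, 4 were called lower, among them ogre (-1.12) and Inx3 (-0.92). On replicates 3 and 4 the ratios of Inx3 were -0.19 and -0.18, against -2.03 and -1.26 on replicates 1 and 2. The median of each group in this paragraph lay furthest from 0 on replicate 1. On replicates 1 to 4 it was -1.54, -0.76, -0.38 and -0.65 for COPI and -0.98, -0.83, -0.09 and -0.33 for CCT. For the innexins it was -1.68, -1.22, -0.19 and -0.18. Calls in these groups were not counted without replicate 1 either.

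Of 1009 genes with several tested probes, 171 were called for at least 1 probe and 25 of these for every probe in the same direction. For 145 only some probes were called, and 2 genes were called in opposite directions. Whether probes of a gene differed from each other was not tested.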
